A study of Mus musculus with 6 samples.

Results

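Matricellular proteins and fibronectin were followed in injured mouse femoral arteries by bulk RNA sequencing. The group was set by gene name and not by any measured value: the rows of the deposited table for Sparc, Smoc2, Postn, Fn1, Tnc, Tnxb, Thbs1, Thbs2, Thbs3 and Thbs4. All 10 genes were found among 18476, and all 10 passed the low-count filter that left 14557 genes for testing. The mice were C57BL/6, WT, and every femoral artery had been injured with a wire and taken at day 3. Treatment was applied around the vessel, as saline in 3 libraries and as Vasostatin-2, a fragment of chromogranin A, in 3 libraries. The submitters describe the 3 libraries of a group as biological replicates, and all 6 carry the label Batch 1. The labels give no age, and the comparison holds no uninjured artery, so a level here cannot be read as induced or lost by injury.

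Matricellular proteins are secreted into the extracellular matrix, where they act on cells through surface receptors and bind growth factors and proteases more than they build fibres. They are known for low levels in quiescent adult arteries and for appearing again in wounds, developing tissue and neointima. Fibronectin is a structural glycoprotein of the provisional matrix, assembled into fibrils by cells through integrins, and many matricellular proteins bind to it. Tenascins are large oligomers, thrombospondins are calcium-binding trimers or pentamers, and SPARC and SMOC2 share a calcium-binding module.

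Library totals ran from 19333730 to 20105995 estimated counts, so depth hardly differed. Members had between 560 and 145757 estimated counts per library, and counting error alone was 4.23% for the smallest, below the spread between libraries reported for every member. The labels name vascular smooth muscle cells, while the RNA came from the whole artery. All 10 smooth muscle markers examined were detected, with summed levels of 848 to 1890 TPM (the deposited transcript level, scaled for length and library) with saline and 902 to 2240 TPM with vasostatin-2. Of all tested genes, 49.8% had log2 fold changes (vasostatin-2 minus saline) above 0, and 3.29% also had edgeR p below 0.05 before adjustment. All 10 smooth muscle markers had values above 0 (median 0.355), 0 of them at that p. Of 10 macrophage markers, 8 had log2 fold changes above 0, 5 of them with p below 0.05 before adjustment and 0 called. Their summed levels were 11600 to 16200 TPM with saline and 14600 to 15300 TPM with vasostatin-2, of which Lyz2 made up the most. Of 8 neutrophil markers tested, 8 had log2 fold changes below 0, 3 of them with p below 0.05 before adjustment and 0 called, with sums of 716 to 1010 TPM and 310 to 696 TPM. The part of these cells in the levels of the 10 genes was not tested. Several libraries stood apart. Saline replicate 2 had the highest red cell markers, 43400 TPM against 1150 to 9500 TPM elsewhere. Saline replicate 3 had the highest Schwann cell markers, 965 TPM against 176 to 282 TPM. Vasostatin-2 replicate 3 had the highest skeletal muscle markers, 1770 TPM against 130 to 195 TPM.

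No member passed the test of a difference between treatments. With Benjamini-Hochberg adjustment over all genes, edgeR (quasi-likelihood) called 0 of 10 members and 0 of 14557 genes (0%), and the smallest adjusted p among members was 0.681, for Smoc2. Before adjustment, 1 member had p below 0.05, Smoc2, where 1040 of all genes did (7.14%, of which 3.85% lower and 3.29% higher with vasostatin-2). limma-voom also called 0 genes after adjustment, and before it 2 members, Thbs1 and Smoc2, and 1575 genes (10.8%) were below 0.05. DESeq2 called 113 genes (0.776%), none of them a member, and before adjustment gave the same 2 members, where the share of all genes was 6.64%. The 1 in 10 members by edgeR is thus close to its background of 7.14%. The 2 in 10 by DESeq2 and limma-voom is a larger share than their backgrounds of 6.64% and 10.8%. These shares rest on 1 or 2 genes, and their difference from the background was not tested.

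Sparc, Postn, Fn1 and Tnc put the 6 libraries in the same order of CPM. Thbs2 differed from it only in the order of vasostatin-2 replicates 1 and 2, while Tnxb had another order. Upstream regions of Sparc, Tnc, Postn, Thbs2 and Tnxb are shown for that reason. Each is the run of 250 bases before a RefSeq transcription start (build GRCm38.p6), 5′ to 3′ on the gene's strand, taken at the start nearest to that of GENCODE where RefSeq has several. RefSeq entries were matched for 7 of the 10 members. For Sparc, the start used lies 3103 bases inside the gene as GENCODE has it. That window is therefore not upstream of the GENCODE start of Sparc. For Tnc, Postn, Thbs2 and Tnxb the start used lies within 27 bases of that of GENCODE. Capitals mark TATAAA (the TATA box), TGANTCA (the AP-1 motif), CCAAT (the CCAAT box) and the motif GGGCGG (the GC box), each on either strand. Sparc lies at chr11:55420081-55420330 on the minus strand, Tnc at chr4:64047016-64047265 on the minus strand, Postn at chr3:54360857-54361106 on the plus strand, Thbs2 at chr17:14694263-14694512 on the minus strand and Tnxb at chr17:34670285-34670534 on the plus strand.
Sparc: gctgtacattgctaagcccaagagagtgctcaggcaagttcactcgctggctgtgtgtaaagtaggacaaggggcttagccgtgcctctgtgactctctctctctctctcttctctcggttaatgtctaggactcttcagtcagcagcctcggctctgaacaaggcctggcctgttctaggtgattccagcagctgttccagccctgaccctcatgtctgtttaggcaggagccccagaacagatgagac
Tnc: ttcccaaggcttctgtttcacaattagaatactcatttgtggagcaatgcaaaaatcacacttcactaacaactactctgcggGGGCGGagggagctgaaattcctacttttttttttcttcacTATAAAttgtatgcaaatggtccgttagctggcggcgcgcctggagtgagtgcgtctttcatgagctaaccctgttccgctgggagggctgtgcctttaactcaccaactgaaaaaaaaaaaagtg
Postn: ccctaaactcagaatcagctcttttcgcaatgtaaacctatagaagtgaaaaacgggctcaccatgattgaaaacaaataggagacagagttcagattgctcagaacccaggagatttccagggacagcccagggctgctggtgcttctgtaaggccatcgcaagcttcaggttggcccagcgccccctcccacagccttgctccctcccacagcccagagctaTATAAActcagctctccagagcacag
Thbs2: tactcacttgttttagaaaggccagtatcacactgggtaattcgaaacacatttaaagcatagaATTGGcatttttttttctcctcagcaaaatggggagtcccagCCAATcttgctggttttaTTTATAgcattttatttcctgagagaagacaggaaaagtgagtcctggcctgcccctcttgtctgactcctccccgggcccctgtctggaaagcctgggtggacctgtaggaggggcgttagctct
Tnxb: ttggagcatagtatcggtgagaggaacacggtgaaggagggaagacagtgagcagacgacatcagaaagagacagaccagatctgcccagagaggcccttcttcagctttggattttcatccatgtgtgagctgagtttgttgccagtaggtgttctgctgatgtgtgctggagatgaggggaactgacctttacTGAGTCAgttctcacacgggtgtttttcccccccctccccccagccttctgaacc
The TATA box letters were found in the windows of Tnc, Postn and Thbs2 but not in that of Sparc, which lies inside the GENCODE gene. They were in 12.4% of 32851 promoter windows of that length. In Postn it began 26 bases before the start, and in Tnc and Thbs2 it began 126 bases before. The AP-1 letters were found in Tnxb alone among the 7 members with a window, and in 6.75% of all windows. The CCAAT box was in 33.8% of all windows and the GC box in 32.7%. These letters are a description of the windows, not of any binding in these arteries.

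Of the SPARC family, Sparc was the most abundant of the 10 genes and Smoc2 the least. Sparc encodes a collagen-binding glycoprotein that also regulates cell adhesion. It was at 7460, 4400 and 5960 TPM in saline replicates 1, 2 and 3, and at 5400, 5230 and 6070 TPM in vasostatin-2 replicates 1, 2 and 3. The vasostatin-2 values all fell inside the saline range. Its mean of 5750 TPM ranked 10 among all genes of the table, and it made up 57.7% of the summed TPM of the 10 genes. The log2 fold change, vasostatin-2 minus saline, was −0.08 (SE 0.19; 95% interval −0.52 to 0.37; edgeR adjusted p = 0.951).

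Smoc2, a relative of SPARC that modulates growth factor signalling and is expressed by fibroblasts, was at 38.5, 28.9 and 44.8 TPM with saline and at 23.6, 31.7 and 20.7 TPM with vasostatin-2. The highest vasostatin-2 library, replicate 2, lay above the lowest saline library, replicate 2, so the groups overlapped by 1 library on each side. As CPM, the count scaled to the library, the means were 51.1 ± 9.10 with saline and 35.0 ± 7.88 with vasostatin-2 (SD, n = 3 each). The log2 fold change was −0.55 (SE 0.19; 95% interval −1.0 to −0.09), with an unadjusted p of 0.0258 and an adjusted p of 0.681 by edgeR. The value was between −0.74 and −0.41 when single libraries were left out, and −0.29 without both replicates 3. The gene spans 14279490 to 14404790 on chromosome 17 in the coordinates of the table. The authors' deposited table gives Smoc2 a log2 fold change of −0.55 with a q-value of 0.426. Of 10 fibroblast markers, 9 had values above 0, where 49.8% of all genes did. Before adjustment, 3 of them had edgeR p below 0.05, where 3.29% of all genes were higher at that p. edgeR called 0 of the 10 after adjustment, and DESeq2 called 1, Pdgfra (edgeR log2 fold change 0.56, DESeq2 adjusted p = 0.0143). The summed level of the 10 markers overlapped between groups, at 2260 to 3720 TPM with saline and 3510 to 3950 TPM with vasostatin-2. Fewer cells of a type and less RNA per cell cannot be told apart in bulk tissue, here or in the values that follow.

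**Figure D1:**
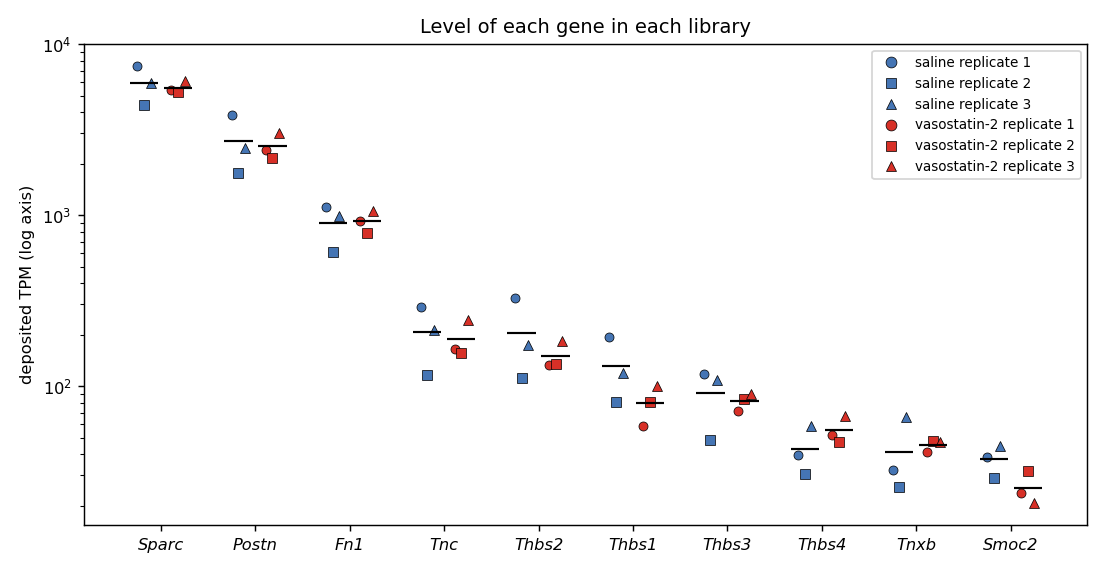
Deposited TPM (log axis) of the 10 genes, ordered by mean level, in each library: blue, saline; red, vasostatin-2; marker shapes, replicate numbers; black lines, group means of 3. Sparc, Postn and Fn1 sit at 611 TPM or more in every library, and in none of the 10 genes do the groups separate.

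Postn and Fn1 were the next most abundant. Postn encodes periostin, a matricellular protein that promotes collagen fibril formation and is typical of activated fibroblasts. It was at 3860, 1760 and 2480 TPM with saline and at 2400, 2170 and 3030 TPM with vasostatin-2. The saline libraries spanned 2.19-fold and held all 3 vasostatin-2 libraries between their extremes. Its log2 fold change was −0.07 (SE 0.27; 95% interval −0.72 to 0.58; edgeR adjusted p = 0.973). Postn had a value of 0.25 without saline replicate 1 and −0.28 without saline replicate 2, so its sign depended on which library was used.

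Fn1, fibronectin itself, was at 1120, 611 and 983 TPM with saline and at 924, 789 and 1050 TPM with vasostatin-2. Group means were 906 ± 265 and 919 ± 128 TPM. On the log2 scale the fold change was 0.04 (SE 0.22; 95% interval −0.48 to 0.56; edgeR adjusted p = 0.980). It ranged from −0.15 without saline replicate 2 to 0.21 without saline replicate 1. The deposited table places Fn1 on chromosome 1 from 71585473 to 71662053 on the plus strand, while GENCODE has the gene on the minus strand, from 71585520 to 71653200. Tnc is likewise given on the plus strand in the deposited table and on the minus strand in GENCODE. The deposited transcript sets of these genes hold RNAcentral entries, 3 of 18 for Fn1 and 9 of 15 for Tnc, and 7 of the 10 members have such an entry. Whether reads of an antisense transcript entered these counts was not tested.

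The order of levels was Sparc, Postn, Fn1, Tnc, Thbs2, Thbs1, Thbs3, Thbs4, Tnxb and Smoc2. Sparc lay above Postn, and Postn above Fn1, in 6 of 6 libraries with no overlap of their ranges. Fn1, with a lowest value of 611 TPM, was above every value of Tnc. From Tnc downwards each gene's range overlapped that of the next. Tnc exceeded Thbs2 in 5 of 6 libraries, Thbs2 exceeded Thbs1 in 6, Thbs1 exceeded Thbs3 in 4, and Thbs4 exceeded Tnxb in 4. These are the levels of the deposited TPM values, which are per transcript length.

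Among the tenascins, Tnc and Tnxb differed in level and in pattern. Tnc encodes tenascin-C, an anti-adhesive glycoprotein that is typical of wounds. It was at 292, 116 and 213 TPM with saline and at 164, 157 and 242 TPM with vasostatin-2. Saline replicate 1 was highest and saline replicate 2 lowest, a span of 2.52-fold that enclosed the treated libraries. Between groups the log2 fold change was −0.13 (SE 0.32; 95% interval −0.89 to 0.64; edgeR adjusted p = 0.953), and it was 0.19 without saline replicate 1 and −0.39 without saline replicate 2.

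Tnxb, tenascin-X, organises collagen fibrils in the connective tissue of adults. It was at 32.2, 25.6 and 65.8 TPM with saline and at 41.0, 48.0 and 46.8 TPM with vasostatin-2. The treated libraries were close together, within 1.17-fold, and lay between saline replicates 1 and 3. Its log2 fold change was 0.15 (SE 0.31; 95% interval −0.59 to 0.90; edgeR adjusted p = 0.940). Without saline replicate 3 it was 0.63 (unadjusted p = 0.00156; adjusted p = 0.384 by edgeR), and without saline replicate 2 it was −0.07. Saline replicate 3 was the library with the highest Schwann cell markers. These summed to 176 to 965 TPM with saline and 210 to 282 TPM with vasostatin-2, with 9 of 10 tested lower and none at 0 in every library. The part of nerve tissue in the level of Tnxb was not tested. The ratio of Tnc to Tnxb was 9.07, 4.53 and 3.24 with saline and 4.01, 3.27 and 5.18 with vasostatin-2, so it ranged widely among saline libraries alone.

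Of the thrombospondins, Thbs1, Thbs2 and Thbs3 had lower means with vasostatin-2 and Thbs4 a higher one, none past the threshold. Thbs1 encodes thrombospondin-1, which activates latent TGF-beta and inhibits angiogenesis, and which is stored in platelet granules. It was at 194, 80.2 and 119 TPM with saline and at 58.5, 80.2 and 99.9 TPM with vasostatin-2. Saline replicate 2 lay among the treated libraries, so the groups overlapped. Means were 371 ± 152 CPM with saline and 229 ± 59.4 CPM with vasostatin-2 (SD, n = 3 each). The log2 fold change of −0.70 (SE 0.32; 95% interval −1.46 to 0.07) had the greatest size among the 10 genes, with an unadjusted p of 0.0672 and an adjusted p of 0.710 by edgeR. DESeq2 and limma-voom gave unadjusted p values of 0.0199 and 0.0361, and adjusted p values of 0.521 and 0.439.

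Single libraries moved Thbs1 but did not turn its sign: it was −0.32 without saline replicate 1 and −0.93 without saline replicate 2. The gene spans 118111876 to 118127133 on chromosome 2. The authors' deposited table gives Thbs1 a log2 fold change of −0.70 with a q-value of 0.627. Platelet and megakaryocyte markers summed to 979 to 1230 TPM with saline and 699 to 816 TPM with vasostatin-2, with 4 of 10 higher, 6 lower and none at 0 in every library. Pf4, a platelet granule chemokine, was at 909, 1110 and 1030 TPM with saline and at 642, 719 and 739 TPM with vasostatin-2 (log2 fold change −0.54, SE 0.12, unadjusted p = 0.00280 by edgeR). Pf4 made up most of the sum, with 909 of 979 TPM in saline replicate 1 and 642 of 699 TPM in vasostatin-2 replicate 1. Ppbp, another granule chemokine, had a log2 fold change of −0.93 (unadjusted p = 0.000928 by edgeR), and DESeq2 called both, at adjusted p = 0.0134 for Pf4 and 0.000768 for Ppbp. Of the platelet surface receptors, Itga2b, Clec1b, Gp9 and Gp5 had log2 fold changes of 0.14, 0.16, 0.21 and 0.59. Others of the list were below 0: Gp1ba at −0.05, Gp1bb at −0.07, Treml1 at −0.21 and Tubb1 at −0.43. None of these passed the threshold, and the median of the list was −0.06. Within the saline group, Thbs1 was highest in replicate 1, where the platelet sum was lowest. Within the vasostatin-2 group, Thbs1 and the platelet sum (699, 776 and 816 TPM) were both lowest in replicate 1 and highest in replicate 3. The part of platelet RNA in the level of Thbs1 was not tested.

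Thbs2, the close trimeric relative of Thbs1 made by fibroblasts and smooth muscle cells, was at 326, 112 and 173 TPM with saline and at 132, 135 and 183 TPM with vasostatin-2. One library, saline replicate 1, stood above the rest. Its fold change was −0.42 on the log2 scale (SE 0.35; 95% interval −1.26 to 0.42; edgeR adjusted p = 0.844), and 0.07 without that library. Thbs3, a pentameric thrombospondin, was at 118, 48.3 and 108 TPM with saline and at 71.9, 84.4 and 89.9 TPM with vasostatin-2 (log2 fold change −0.14, SE 0.29; edgeR adjusted p = 0.941), and its fold change was −0.42 without saline replicate 2 (unadjusted p = 0.00625, adjusted p = 0.288 by edgeR) and 0.075 without saline replicate 1. Its treated values lay inside the saline range. Its exons share 318 bases with Mtx1 on the opposite strand, and nothing used here states whether counting used strand, so its counts are uncertain. Mtx1 had 686 estimated counts on average.

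Thbs4, a pentameric thrombospondin known from tendon, muscle and injured tissue, had the highest fold change among the 10 genes. It was at 39.3, 30.5 and 58.2 TPM with saline and at 52.0, 47.0 and 67.2 TPM with vasostatin-2. Saline replicate 3 lay between the treated libraries, so the groups overlapped. Its log2 fold change was 0.39 (SE 0.23; 95% interval −0.16 to 0.95; unadjusted p = 0.134; adjusted p = 0.763 by edgeR). Leaving out saline replicate 3 gave 0.67 (unadjusted p = 0.00825, adjusted p = 0.496 by edgeR), and leaving out vasostatin-2 replicate 3 gave 0.23. The latter library had the highest sum of skeletal muscle markers. These summed to 153 to 195 TPM with saline and 130 to 1770 TPM with vasostatin-2, with 14 of 14 higher and none at 0 in every library, and Acta1, skeletal actin, was at 420 TPM there against 14.9 to 24.5 TPM elsewhere. It also held the highest Tnmd, a tendon marker, at 6.86 TPM against 1.09 to 2.64 TPM. Kera, another tendon marker, was at 3.28 TPM there against 0 to 0.39 TPM elsewhere. The summed tendon markers, of which Comp and Fmod were the most abundant, were lowest there, at 61.2 TPM against 63.0 to 107 TPM. By mean log2 CPM, tendon markers were lowest in vasostatin-2 replicate 2, at 1.51 against 1.79 in vasostatin-2 replicate 3. The part of muscle or tendon RNA in the level of Thbs4 was not tested.

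**Figure D2:**
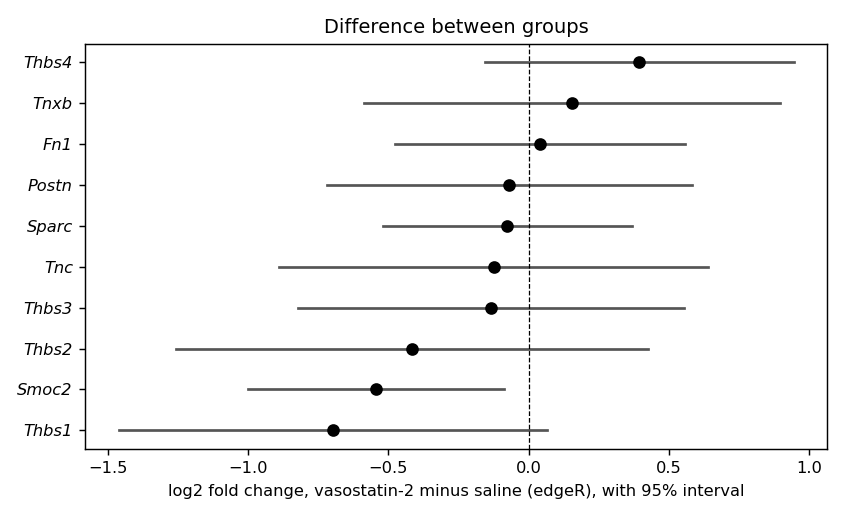
Log2 fold change of each gene, vasostatin-2 minus saline, from edgeR's quasi-likelihood fit over all genes (points), with 95% intervals (lines). Only the interval of Smoc2, −1.0 to −0.09, leaves out 0, and it does so before adjustment for the number of genes tested.

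Over the 10 genes, 7 had values below 0 and 3 above 0, against 50.2% below and 49.8% above over all tested genes. The median log2 fold change was −0.10, where that of all tested genes was −0.00068. In 0 of 10 members did the groups separate without overlap, where 12.8% of all tested genes did so. Without saline replicate 1 there were 8 members higher, and without saline replicate 2 there was 1 (the share of all genes in those fits is not given). The split of directions therefore cannot be assigned to treatment from these libraries.

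These genes varied more among saline libraries than among treated ones. The SD of log2 CPM (prior count 2) was larger with saline than with vasostatin-2 in 9 of 10 members, Smoc2 being the exception, where 65.8% of all tested genes had the larger SD in saline. The median SD of the members was 0.546 with saline and 0.254 with vasostatin-2, against 0.159 and 0.111 over all tested genes. There were 7 members highest in saline replicate 1, where 21.4% of all genes had their maximum, and 8 lowest in saline replicate 2, where 23.2% of all genes had their minimum. The exceptions at the low end were Thbs1, lowest in vasostatin-2 replicate 1, and Smoc2, lowest in vasostatin-2 replicate 3. At the high end, Tnxb and Smoc2 peaked in saline replicate 3 and Thbs4 in vasostatin-2 replicate 3.

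**Figure D3:**
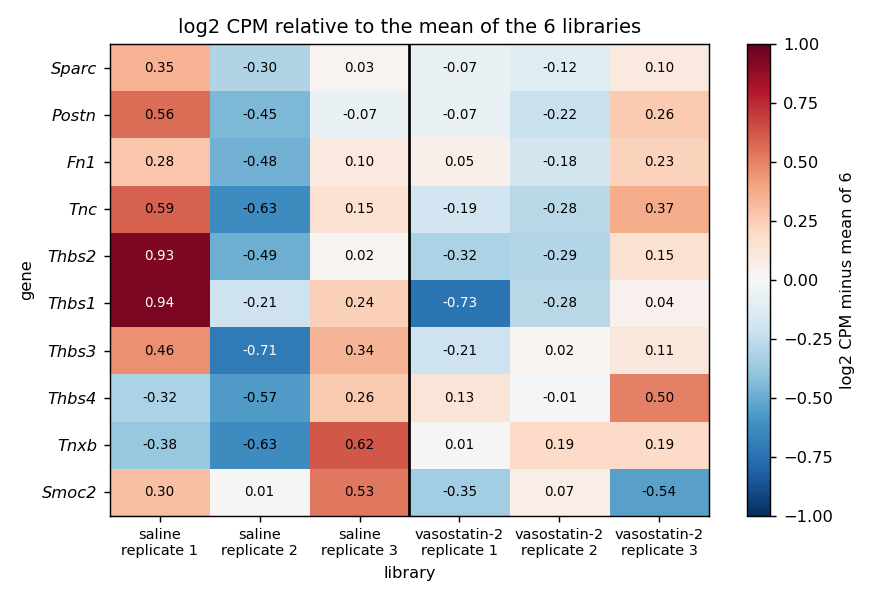
Log2 CPM of each gene (rows, by mean level) in each library (columns) minus its mean over the 6 libraries; red is above and blue below that mean, with values printed in the cells. Saline replicate 2 holds the lowest value of 8 of the 10 genes and saline replicate 1 the highest of 7.

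Relative to each gene's own mean, the median member stood at 0.40 in saline replicate 1 and at −0.48 in saline replicate 2, on the log2 scale. It was 0.19 in saline replicate 3 and −0.13, −0.15 and 0.17 in vasostatin-2 replicates 1, 2 and 3. Saline replicate 2, the low library, also had the highest sum of red cell markers and the lowest sums of smooth muscle and fibroblast markers, 848 and 2260 TPM. By mean log2 CPM, smooth muscle markers were lowest in vasostatin-2 replicate 1, at 5.72 against 5.78 in saline replicate 2. Sums of macrophage, neutrophil and platelet markers were also highest in saline replicate 2, at 16200, 1010 and 1230 TPM. Saline replicate 1 had the lowest sum of adipocyte markers, 8040 TPM against 12400 to 17000 TPM elsewhere. Its macrophage sum was also the lowest, at 11600 TPM. By mean log2 CPM, platelet markers were lowest in saline replicate 1 (1.84). On that scale macrophage markers were highest in vasostatin-2 replicate 3 (9.26) and lowest in saline replicate 3 (8.89). The part of tissue makeup in this spread was not tested.

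Some members resembled each other more than others in this profile. Likeness was measured as the root-mean-square difference of log2 CPM after centring each gene on its mean of 6 libraries. Sparc and Fn1 were the nearest pair at 0.11, followed by Postn with Tnc at 0.13 and Postn with Sparc at 0.14. Among 10445 other genes above a mean of 10 CPM, the nearest to Thbs1 were Ncam1 (0.17), Nfil3 (0.19) and Antxr1 (0.20), where the median gene was at 0.53. The nearest to Thbs2 were Has2 (0.13), Aspn (0.14) and Col12a1 (0.15), against a median of 0.48. The nearest to Tnxb were Gatm (0.08), Eln (0.09) and Etv1 (0.10), against a median of 0.42. How near other genes lie to their own neighbours was not tested, so these values describe the profiles only.

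**Figure D4:**
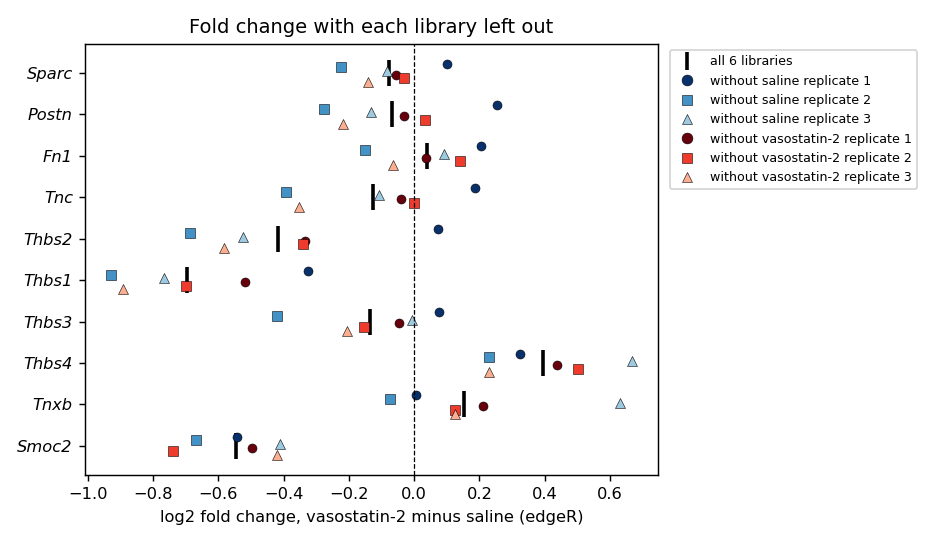
Log2 fold change of each gene (edgeR, vasostatin-2 minus saline) with all 6 libraries (black bar) and with each library left out (coloured markers). Leaving out saline replicate 1 or saline replicate 2 moves most genes in opposite directions, while Thbs1 and Smoc2 stay below 0 and Thbs4 above 0 throughout.

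Related genes were read in the same fit, in 5 lists. Of all tested genes, 12.8% had groups that did not overlap in CPM, in either direction. Before adjustment (p below 0.05), 3.29% of all tested genes were higher and 3.85% lower with vasostatin-2. Of 25 tested genes for other matricellular proteins, 0 were called after adjustment, 1 was higher and 2 were lower before adjustment (p below 0.05), and the median log2 fold change was −0.04. Spp1, osteopontin, the most abundant of them, was at 914, 3840 and 774 TPM with saline and at 1540, 1970 and 2120 TPM with vasostatin-2. Its peak was in saline replicate 2, the library in which the 10 genes were mostly lowest. Igfbp7, a secreted binding protein of insulin-like growth factors, was at 1450 to 1860 TPM in all libraries (log2 fold change −0.04). Vwa1, a matrix protein with a von Willebrand factor A domain, was at 43.6 ± 7.56 CPM with saline and 29.8 ± 2.53 CPM with vasostatin-2, and its groups did not overlap (log2 fold change −0.55, edgeR adjusted p = 0.534). Spock2, a testican proteoglycan of the SPARC family, was at 13 ± 1.2 and 16.8 ± 2.59 CPM (log2 fold change 0.36, edgeR adjusted p = 0.681).

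No receptor for these proteins was called among 20 tested in the same fit, and 0 were higher and 1 was lower before adjustment (p below 0.05), with a median log2 fold change of −0.04. That one was Plaur, the urokinase receptor, at 55.8 ± 3.69 CPM with saline and 46.2 ± 1.91 CPM with vasostatin-2 (log2 fold change −0.27, edgeR adjusted p = 0.579), without overlap of the groups. The log2 fold change farthest from 0 was that of Itga8, an integrin chain that binds fibronectin, which was chosen after its values were seen. It was at 5.85 ± 2.92 and 11.2 ± 7.24 CPM (log2 fold change 0.94, SE 0.64, edgeR adjusted p = 0.797). Sdc1, a heparan sulfate proteoglycan, had a log2 fold change of −0.32 (edgeR adjusted p = 0.710). The most abundant were Calr, calreticulin, at 1340 TPM, and Cd36, a scavenger receptor that binds thrombospondins, at 493 TPM, with log2 fold changes of −0.05 and −0.03.

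Genes of fibronectin fibril assembly and matrix crosslinking had a median log2 fold change of 0.02, with 1 of 24 higher and 0 lower before adjustment (p below 0.05). Mmrn1, multimerin, a secreted protein of platelets and endothelium, was the 1 that DESeq2 called (adjusted p = 0.0234). It was at 77.4 ± 18.8 CPM with saline and 134 ± 22.3 CPM with vasostatin-2 (log2 fold change 0.79, edgeR adjusted p = 0.548), without overlap of the groups. Bmp1, a procollagen protease, had a log2 fold change of −0.30 (edgeR adjusted p = 0.728) without overlap of the groups. Pcolce, its enhancer, and Rhoa, a GTPase of the contractile cytoskeleton, were at 635 and 583 TPM on average, with log2 fold changes of −0.05 and 0.02.

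Collagens and other provisional matrix genes had a median log2 fold change of −0.11, with 2 of 18 higher and 0 lower before adjustment (p below 0.05), and 0 called. Col1a1 and Col3a1, the chains of the main fibrillar collagens, were highest in saline replicate 1, at 6860 and 8970 TPM. They were lowest in saline replicate 2, at 3470 and 4180 TPM. Both of the higher genes are small leucine-rich proteoglycans of fibroblasts that bind collagen. Dcn was at 1120 ± 231 CPM with saline and 1530 ± 115 CPM with vasostatin-2 (log2 fold change 0.45, edgeR adjusted p = 0.681). Lum was at 339 ± 122 and 554 ± 78.2 CPM (log2 fold change 0.71, edgeR adjusted p = 0.681). Neither Dcn nor Lum had overlap of the groups.

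TGF-beta ligands, receptors and feedback genes had a median log2 fold change of 0.03, with 1 of 20 higher and 0 lower before adjustment (p below 0.05), and 0 called. Ltbp4, which binds latent TGF-beta, was at 231 ± 45.4 CPM with saline and 298 ± 18.3 CPM with vasostatin-2 (log2 fold change 0.37, edgeR adjusted p = 0.684). Skil, a feedback inhibitor of SMAD signalling, had a log2 fold change of −0.28 (edgeR adjusted p = 0.728). Neither Ltbp4 nor Skil had overlap of the groups. Eng, a TGF-beta co-receptor, had a log2 fold change of 0.10.

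**Figure D5:**
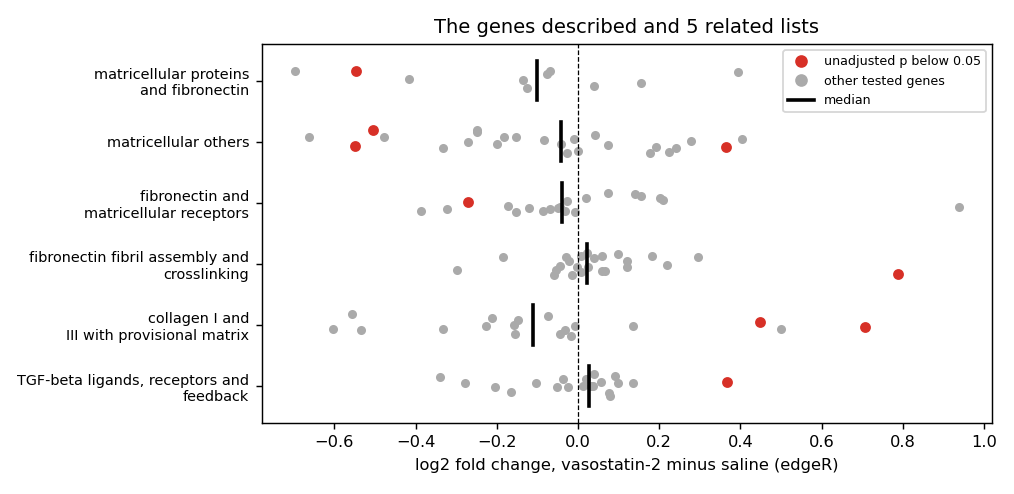
Log2 fold change (edgeR, vasostatin-2 minus saline) of the 10 genes and of the tested genes in 5 related lists; red points have an unadjusted p below 0.05 and black bars are medians. The medians lie between −0.11 and 0.03, and no gene shown passed edgeR after adjustment.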

How the data were processed

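Per the submitters' processing notes, HISAT2 2.1.0, DESeq2 1.26.0 and GRCm38.p6 were used. No source used here names the counting tool. The deposited table holds estimated counts, TPM and FPKM (not used here) per library. The authors' DESeq2 columns there hold a log2 fold change, a p-value and a q-value, per the file headers. Of the deposited estimated counts 65.6% were whole, and all were rounded. Genes were filtered with filterByExpr, scaled by TMM and tested with edgeR 4.0.16 (quasi-likelihood, robust, treatment as the only term), with Benjamini-Hochberg adjustment over all genes. DESeq2 1.42.0, limma 3.58.1 (voom with quality weights, and log2 of TPM with a pseudocount of 1) and left-out libraries were alternatives. Fits were tested on simulated data. Each p-value sets the difference between groups against the spread between these libraries.

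All members are named, and from each related list the 2 genes with the highest mean TPM and the 2 with the smallest p. Some items the rule covers are not reported here. Genes most like a member are given for the 3 members of widest range. Members and lists were chosen with earlier results of these data known. The tabled coordinates are GRCm38.p6, promoters are from RefSeq on that build and strands were compared with GENCODE M21.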

Additional observations from a re-analysis of the deposited data

How the results depend on the processing

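In 14 alternatives the 10 fold changes gave 140 values, of which 129 kept their direction and 11 reversed, and no member passed an adjusted threshold in any. Thbs1, Smoc2 and Thbs4 kept their sign throughout. The count of genes called over all genes was 113 with DESeq2 and 0 to 2 with single libraries left out. Members at p below 0.05 before adjustment were 2 with DESeq2, with limma-voom and without both replicates 3, and 0 to 3 with single libraries left out. Members higher with vasostatin-2 numbered 1 to 8 with single libraries left out. The shares of all genes at that p or higher are not given for the left-out fits. These counts of members therefore cannot be read against a background. With single libraries left out, fold changes ranged from −0.28 to 0.25 for Postn, −0.22 to 0.10 for Sparc, −0.39 to 0.19 for Tnc, −0.69 to 0.072 for Thbs2, −0.42 to 0.075 for Thbs3, −0.074 to 0.63 for Tnxb and −0.15 to 0.21 for Fn1. Fn1 was −0.069 with limma-voom and −0.013 without both replicates 3, where Thbs2 was −0.696; the cause was not tested. With the replicate block the median of the members was −0.06 and 1 member, Thbs4, had an unadjusted p below 0.05 (0.00458; adjusted p = 0.575 by edgeR). Same-numbered libraries correlated at −0.12, 0.03 and 0.03 in their deviations from group means. The labels give no pairing, and with 3 libraries a group these values cannot show that there was none. With 3 libraries a group, the width of the intervals given is the limit of precision, and a p that misses the threshold does not show that values were equal.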

Other observations

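Ratios between members are given here as values only, since they were chosen after the data had been seen. Thbs1 relative to Postn was 0.0502, 0.0455 and 0.0477 in saline replicates 1, 2 and 3, and 0.0243, 0.0369 and 0.0329 in vasostatin-2 replicates 1, 2 and 3, in TPM. Every treated library lay below every saline library. The groups overlapped in the ratios of Tnc to Tnxb, Fn1 to Postn, Sparc to Smoc2 and Thbs4 to Thbs3, which were also formed. They also overlapped in the sum of Thbs1 and Thbs2 over that of Thbs3 and Thbs4. That ratio was 3.32, 2.45 and 1.76 with saline and 1.54, 1.64 and 1.80 with vasostatin-2. Thbs1 relative to Thbs2 was 0.594, 0.714 and 0.685 with saline and 0.442, 0.594 and 0.545 with vasostatin-2, with saline replicate 1 and vasostatin-2 replicate 2 almost equal. An exact permutation test on 3 against 3 libraries cannot go below 0.1, so none was used.

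The summed TPM of the 10 genes was 13500, 7210 and 10200 with saline and 9270, 8780 and 10900 with vasostatin-2. Divided by the summed TPM of Col1a1, Col1a2 and Col3a1, it was 0.645, 0.715 and 0.736 with saline and 0.701, 0.744 and 0.711 with vasostatin-2. The saline libraries that differed 1.87-fold in the sum thus differed much less in this ratio.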
